A study of Mus musculus with 2 samples.

Results

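The 9 genes *Trem2*, *Tyrobp*, *Cd9*, *Gpnmb*, *Spp1*, *Lgals3*, *Lgals1*, *Itgax* and *Dcstamp*, which are read together as a lipid-associated macrophage program, were followed in adipose tissue macrophages (ATMs), 9 of the 31053 genes measured. They were taken by name and not by their values. ATMs were sorted as CD45+Lin-Ly6Clow/-F4/80+ cells from the epididymal fat of male C57/BL6 mice of 8 to 12 weeks. In the control diet (CD) group, mice ate a chow with 11% of calories from fat, and in the high-fat diet (HFD) group they were fed a diet with 58% of calories from fat for 1 night. Cells of 3 mice were pooled into 1 library per diet, so neither library can show the spread between mice, and no test of a diet effect was possible. All intervals below cover counting error only.

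TREM2 is a lipid-sensing receptor of macrophages and microglia that has no signalling tail of its own and signals through the adaptor TYROBP (DAP12), whose motif recruits the kinase SYK. In obese fat, macrophages around dying adipocytes carry TREM2 together with the tetraspanin CD9, the lysosomal glycoprotein GPNMB, osteopontin (*Spp1*) and galectin-3 (*Lgals3*), and are called lipid-associated macrophages (LAMs). Galectin-1 (*Lgals1*) is a second sugar-binding protein of macrophages, *Itgax* encodes the integrin CD11c, and *Dcstamp* encodes a membrane protein needed for the fusion of macrophages and osteoclasts.

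The stretches around the start sites are shown because members of the one program differed in direction between the diets, with *Trem2* lower and *Lgals3* higher in HFD. RefSeq (GRCm38.p6) gave a promoter window, 250 bases before to 50 after a start site, for 6 of the 9 members (*Trem2*, *Cd9*, *Gpnmb*, *Spp1*, *Lgals3* and *Itgax*). Capitals mark an AP-1 motif (TGANTCA, bound by FOS and JUN proteins) or a PU.1 motif (GAGGAAGT, bound by a factor of the myeloid lineage), each searched on both strands.
Trem2, chr17:48346151-48346450, + strand: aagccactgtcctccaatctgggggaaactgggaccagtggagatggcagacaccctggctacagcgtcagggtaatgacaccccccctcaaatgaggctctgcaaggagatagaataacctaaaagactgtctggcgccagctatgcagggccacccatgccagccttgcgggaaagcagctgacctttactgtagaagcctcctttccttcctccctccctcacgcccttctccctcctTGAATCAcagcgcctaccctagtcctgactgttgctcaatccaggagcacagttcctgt
Gpnmb, chr6:49036268-49036567, + strand: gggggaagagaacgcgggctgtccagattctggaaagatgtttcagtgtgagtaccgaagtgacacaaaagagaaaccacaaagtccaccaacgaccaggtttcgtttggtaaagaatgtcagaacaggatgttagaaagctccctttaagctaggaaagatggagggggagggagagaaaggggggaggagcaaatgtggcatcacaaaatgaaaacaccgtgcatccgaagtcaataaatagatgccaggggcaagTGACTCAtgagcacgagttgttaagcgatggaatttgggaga
Itgax, chr7:128129300-128129599, + strand: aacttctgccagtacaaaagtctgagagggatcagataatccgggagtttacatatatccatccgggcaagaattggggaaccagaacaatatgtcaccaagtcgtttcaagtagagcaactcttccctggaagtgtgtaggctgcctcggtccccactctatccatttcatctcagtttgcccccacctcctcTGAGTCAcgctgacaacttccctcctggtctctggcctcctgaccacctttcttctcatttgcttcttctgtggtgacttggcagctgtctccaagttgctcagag
Spp1, chr5:104434861-104435160, + strand: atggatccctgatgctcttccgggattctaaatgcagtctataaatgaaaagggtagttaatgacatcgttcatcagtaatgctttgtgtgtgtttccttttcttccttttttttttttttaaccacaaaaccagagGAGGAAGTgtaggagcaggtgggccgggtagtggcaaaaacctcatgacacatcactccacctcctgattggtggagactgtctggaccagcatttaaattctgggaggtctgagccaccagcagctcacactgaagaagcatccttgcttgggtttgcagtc
Lgals3, chr14:47373610-47373909, + strand: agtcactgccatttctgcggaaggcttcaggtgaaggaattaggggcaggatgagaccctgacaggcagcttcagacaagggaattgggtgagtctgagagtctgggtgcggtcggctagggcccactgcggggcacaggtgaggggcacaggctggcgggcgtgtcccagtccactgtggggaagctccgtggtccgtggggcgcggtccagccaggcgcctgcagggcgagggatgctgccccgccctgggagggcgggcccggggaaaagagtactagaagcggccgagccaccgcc
The AP-1 motif lay 9 bases before the start site of *Trem2*, 56 bases before that of *Itgax* and 8 bases after that of *Gpnmb*. The PU.1 motif lay 113 bases before a start site of *Spp1*. Another *Spp1* window, at chr5:104435942-104436241, held no motif and is not printed. Neither motif nor the E-box CACGTG, which factors of the TFEB family bind, was found in the windows of *Lgals3* and *Cd9*. Over 32851 promoter windows, 7.81% held the AP-1 motif, 3.20% the PU.1 motif and 7.15% the E-box, so a match in a window is a description and not a site.

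In GENCODE's annotation of GRCm38, each member is 1 protein-coding gene: *Trem2* at chr17:48346401-48354147, *Tyrobp* at chr7:30413760-30417585, *Gpnmb* at chr6:49036546-49070929, *Spp1* at chr5:104435118-104441050, *Lgals3* at chr14:47367751-47386160, *Lgals1* at chr15:78926725-78930465, *Itgax* at chr7:128129547-128150657 and *Dcstamp* at chr15:39745930-39760938, all on the + strand, and *Cd9* at chr6:125460266-125494791 on the - strand.

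Cells with 200 to 3500 genes, at most 10% mitochondrial UMIs and no UMI of the endothelial genes *Pecam1*, *Kdr* and *Flt1* were kept. This left 2309 of 4459 CD barcodes with a median of 4479 UMIs and 1964 of 3163 HFD barcodes with a median of 2775.5 UMIs. Genes of the macrophage list (*Adgre1*, *Csf1r*, *Cd68*, *Itgam*, *Fcgr1*, *Mertk*, *Lyz2*) had a UMI in 99.8% of CD and 99.7% of HFD cells. *Lyz2* alone gave nearly all of this share, with a UMI in 99.7% of CD and 99.6% of HFD cells. The other genes of the list ran from *Csf1r* (91.3% and 72.5%) to *Fcgr1* (15.8% and 9.57%), each with a smaller share in HFD, where cells were shallower. In CPM, *Lyz2* (12631 and 18067) and *Itgam* (228 and 298) were higher in HFD. *Csf1r* (818 and 469), *Cd68* (349 and 259), *Adgre1* (276 and 237), *Fcgr1* (42.8 and 31.2) and *Mertk* (38.2 and 34.0) were lower. The libraries shared 14 barcode sequences, of which 9 CD and 10 HFD cells were kept. Lists of T or NK, B and mesothelial cell markers had at most 18 UMIs each in a library. Other lists differed between the libraries. Stromal markers (*Col1a1*, *Col3a1*, *Dcn*, *Pdgfra*) summed to 71.5 CPM in CD and 4.22 CPM in HFD, and dendritic markers to 147 and 83.1 CPM. Monocyte markers summed to 34.5 and 117 CPM and the cycling genes *Mki67* and *Top2a* to 44.0 and 14.2 CPM. The part of these 4 lists in the diet ratios of the members was not tested. Peritoneal macrophage markers (*Gata6*, *Prg4*, *Selp*, *Alox15*) had a UMI in 48 CD and 39 HFD cells, and the erythroid genes *Hbb-bs* and *Hba-a1* summed to 44.9 CPM in CD and 727 CPM in HFD.

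Levels are given as CPM, the UMIs of a gene per 1000000 UMIs of the cells concerned, with no scaling for transcript length. Genes with at least 50 UMIs over both groups were compared, and a difference was counted from 1.5-fold, a log2 ratio of 0.58. In all cells *Lgals3* was higher in HFD, *Trem2*, *Lgals1* and *Spp1* were lower, and *Tyrobp*, *Cd9*, *Itgax* and *Dcstamp* differed by less than 1.5-fold. The *Spp1* difference rested on 1 CD cell, without which its log2 ratio was -0.22, under 1.5-fold, and it was -0.10 with each cell counted equally and -0.44 without the 5% of cells with the most UMIs. That is 1 member higher and 3 lower of the 8 compared, or 2 lower without that cell, while of all genes compared 4.94% were higher and 8.75% lower. The median log2 ratio of the 8 members was 0.05, against -0.01 over all genes. In bulk sums of this kind, fewer cells with a gene and less RNA of it per cell cannot be told apart, so shares of cells are given beside the levels.

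The receptor *Trem2* had 1010 UMIs in CD, 84.3 CPM (95% interval 79.2 to 89.7), and 316 UMIs in HFD, 40.4 CPM (36.1 to 45.2). The HFD library was the lower one, with a log2 ratio of -1.06 (-1.25 to -0.88). A *Trem2* UMI was seen in 623 CD cells (27.0%) and in 161 HFD cells (8.20%), and after each cell was thinned to 800 UMIs the shares were 6.62% (5.63 to 7.72) and 2.58% (1.90 to 3.41). The HFD cells were the shallower ones. Cells with exactly 1 numbered 419 in CD and 110 in HFD, whereas cells with 5 or more numbered 23 in CD and 19 in HFD. The 1% of cells richest in *Trem2* held 15.3% of its UMIs in CD and 40.8% in HFD.

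Its adaptor *Tyrobp* was seen in nearly all cells, at 2028 CPM in CD and 2321 CPM in HFD (log2 ratio 0.19, 0.17 to 0.22). After thinning, 72.4% of CD and 71.4% of HFD cells had a UMI. The receptor and the adaptor it signals through therefore had different diet ratios in these libraries.

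The galectins moved in opposite directions. *Lgals3* was at 887 CPM in CD and 1970 CPM in HFD (log2 ratio 1.15, 1.12 to 1.19), and its share of thinned cells was 34.5% in CD and 53.0% in HFD. *Lgals1* was at 1130 CPM in CD and 640 CPM in HFD (log2 ratio -0.82, -0.87 to -0.77), with thinned shares of 53.7% and 32.9%. *Trem2*, *Lgals3* and *Lgals1* were the 3 members whose thinned shares did not overlap between the libraries in their intervals, 1 higher and 2 lower in HFD. Of all 9843 genes compared, 3.46% had a share above and 4.72% a share below that of CD in this sense.

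*Cd9* was at 31.0 CPM in CD and 35.96 CPM in HFD, a log2 ratio of 0.22 whose interval (-0.01 to 0.44) held 0. *Itgax* was at 29.6 and 27.8 CPM (-0.09, -0.34 to 0.15), and *Dcstamp* at 26.4 and 34.4 CPM (0.38, 0.14 to 0.62). These 3 genes were found in few cells of either library: after thinning in 1.45% and 1.76% for *Cd9*, 1.97% and 1.43% for *Itgax*, and 1.27% and 1.87% for *Dcstamp*, CD and HFD in turn.

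*Gpnmb* and *Spp1*, hallmarks of LAMs in obesity, were close to the limit of detection. *Gpnmb* had 13 UMIs in 6 CD cells and 11 UMIs in 7 HFD cells, too few to compare, and 1 cell in each library held 5 of them. *Spp1* had 56 UMIs in 23 CD cells and 23 UMIs in 18 HFD cells, 4.68 and 2.94 CPM (log2 ratio -0.67, -1.44 to 0.06). A single CD cell held 15 of the 56 *Spp1* UMIs, and without it the CD level was 3.43 CPM.

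A share of cells with a UMI can include free RNA. The 13 CD and 8 HFD barcodes with at least 2 endothelial UMIs, at medians of 4714 and 6400 UMIs, are too few for a reference level, and 11 and 7 of them also held *Tyrobp*. *Trem2* had a UMI in 3 of the 13 and 1 of the 8. Of single *Trem2* UMIs in a cell it is therefore not known how many were free RNA, and this was not tested.

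**Figure D1:**
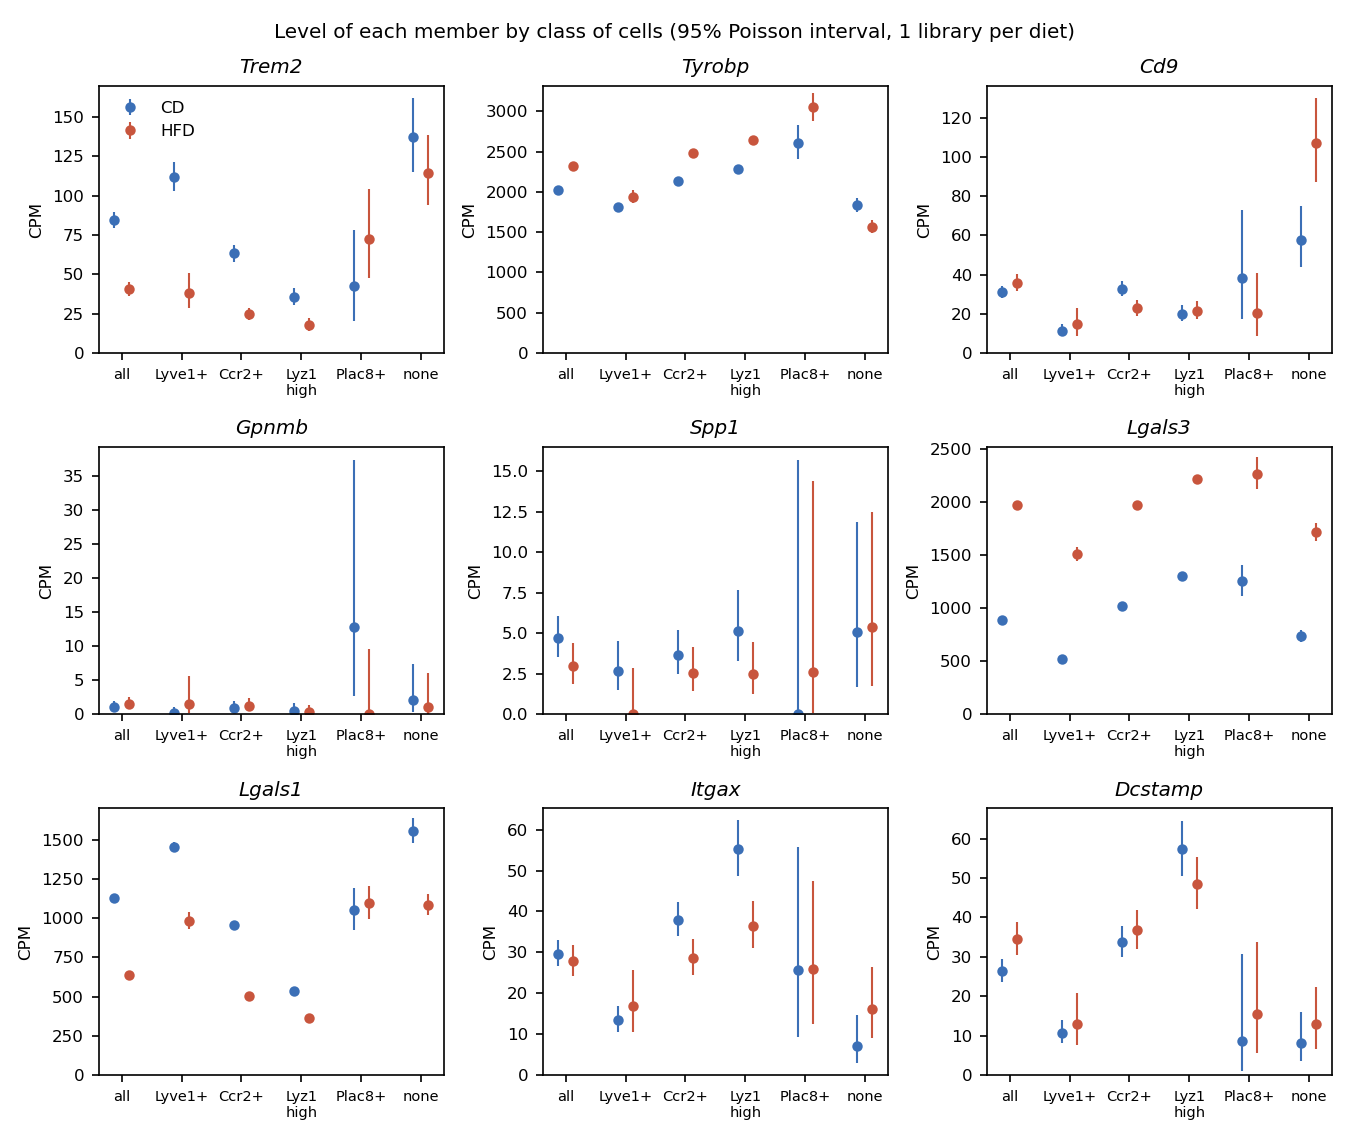
Levels of the 9 members in CPM (y axis, from 0, a scale of its own for each gene) in all cells, in 4 classes cut on *Lyve1*, *Ccr2*, *Lyz1* and *Plac8*, and in cells of none of them, for the CD library (blue) and the HFD library (red); points are summed levels and bars 95% Poisson intervals. *Trem2* and *Lgals1* lie lowest in cells with high *Lyz1*, where *Itgax* and *Dcstamp* lie highest, and *Lgals3* lies higher in HFD in each class.

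The cells were then divided by genes of resident and of monocyte-derived ATMs. *Lyve1*, a hyaluronan receptor, marks resident ATMs, *Ccr2*, a chemokine receptor, marks cells recruited from blood, *Lyz1* (10 UMIs or more) is a lysozyme of the recruited cells, and *Plac8* is found in monocytes. *Lyve1*+ cells numbered 1145 in CD and 400 in HFD, *Ccr2*+ cells 1291 and 1103, *Lyz1* high cells 544 and 656, and *Plac8*+ cells 36 and 71. Each class is cut on 1 gene and the classes overlap, since 520 CD and 589 HFD cells were both *Ccr2*+ and *Lyz1* high and 481 and 146 both *Lyve1*+ and *Ccr2*+. Median UMIs per cell were 4030 and 2293 in *Lyve1*+, 5945 and 4939 in *Ccr2*+, 8212.5 and 6567 in *Lyz1* high and 6337.5 and 4691 in *Plac8*+ cells, against 4479 and 2775.5 over all cells, so *Lyve1*+ cells were shallower and cells of the other 3 classes deeper than the library as a whole.

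*Trem2* and *Lgals1* were higher in *Lyve1*+ cells of CD. There *Trem2* was at 112 CPM in *Lyve1*+ cells and 63.0 CPM in the others (log2 ratio 0.83, 0.65 to 1.01), and *Lgals1* at 1455 and 879 CPM (0.73, 0.68 to 0.78). With cells thinned to 800 UMIs the *Trem2* ratio was 0.38, under 1.5-fold, as was that of *Lgals1* among cells of exactly 1 class (0.46). In HFD, *Lgals1* was again higher in *Lyve1*+ cells (981 against 571 CPM, 0.78), but *Trem2* was at 38.4 and 40.9 CPM (-0.09, -0.56 to 0.35). Over 11 alternatives that *Trem2* ratio ran from -1.06 to 0.06. *Cd9*, *Itgax* and *Dcstamp* were lower in *Lyve1*+ cells of both libraries, with log2 ratios of -2.00, -1.66 and -1.85 in CD and -1.46, -0.83 and -1.57 in HFD. *Lgals3* was lower in *Lyve1*+ cells of CD (522 against 1169 CPM, -1.16) and by less than 1.5-fold in HFD (-0.45, and -1.39 to -0.36 over 11 alternatives). *Spp1*, with 14 of its 56 CD UMIs in *Lyve1*+ cells, was lower in CD (-1.22, -2.20 to -0.31). In all, 2 of 8 compared members were higher and 5 lower in CD, and 1 higher and 3 lower of 7 in HFD, where 14.7% and 13.2% of all genes were higher and 7.15% and 7.13% lower, CD and HFD in turn.

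*Itgax* and *Dcstamp* were higher in *Lyz1* high cells of both libraries. In CD, *Dcstamp* was at 57.3 CPM in *Lyz1* high and 6.70 CPM in other cells (log2 ratio 3.10, 2.65 to 3.57), and in HFD at 48.5 and 15.8 CPM (1.62, 1.18 to 2.08). *Itgax* was at 55.1 and 13.4 CPM in CD (2.04, 1.70 to 2.39) and at 36.4 and 16.4 CPM in HFD (1.15, 0.70 to 1.62). *Lgals3* was higher there in CD (1299 against 624 CPM, 1.06) and by less than 1.5-fold in HFD (0.42, and 0.12 to 1.02 over 11 alternatives). *Trem2* was lower in *Lyz1* high cells, at 35.6 against 115 CPM in CD (-1.70) and 17.7 against 70.5 CPM in HFD (-1.99), as were *Lgals1* (-1.49 and -1.47) and *Cd9* (-0.91 and -1.35). That made 3 members higher and 3 lower of 8 in CD, and 2 higher and 3 lower of 7 in HFD, against 7.89% and 6.04% of all genes higher and 23.4% and 23.2% lower.

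In *Ccr2*+ cells of CD *Itgax* (1.97), *Dcstamp* (1.93) and *Lgals3* (0.83) were higher, *Trem2* (-1.09), *Spp1* (-0.96) and *Lgals1* (-0.70) lower, and *Cd9* was at 0.31. In *Ccr2*+ cells of HFD *Trem2* (-1.91), *Cd9* (-1.80) and *Lgals1* (-1.11) were lower and none was higher, and *Itgax* was at 0.19 and *Dcstamp* at 0.46. Without cells with a peritoneal macrophage marker, *Cd9* in *Ccr2*+ cells of CD moved from 0.31 to 0.67, and over 10 alternatives it ran from 0.01 to 2.80. In *Ccr2*+ cells of HFD, *Itgax* ran from -0.77 to 0.52 and *Dcstamp* from -0.59 to 0.77, over 10 alternatives each. The lower *Trem2* and *Lgals1* depended on the cells compared. In CD, *Trem2* was at -0.14 with cells thinned to 800 UMIs and at -0.55 among cells of exactly 1 class, and *Lgals1* was at -0.49 and -0.38. In HFD, *Trem2* was at -0.40 and *Lgals1* at -0.45 among cells of exactly 1 class. Over all genes, 8.7% and 8.14% were higher and 18.9% and 22.3% lower in *Ccr2*+ cells, CD and HFD in turn.

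*Plac8*+ cells were few, and so were their UMIs. In CD, *Trem2* (10 UMIs, log2 ratio -0.9995) and *Dcstamp* (2 UMIs, -1.65, with an interval of -4.70 to 0.21) were lower and none was higher. In HFD, *Trem2* (28 UMIs in 12 cells, 0.90, 0.28 to 1.46) and *Lgals1* (0.83) were higher and *Cd9* (8 UMIs, -0.83) and *Dcstamp* (6 UMIs, -1.19) lower, and when cells were thinned to 800 UMIs the *Trem2* ratio turned to -1.18 and the *Lgals1* ratio was 0.14. *Spp1* had no UMI in the 36 CD cells, where 3 UMIs would be 12.8 CPM. Over all genes, 16.6% and 10.8% were higher and 20.7% and 18.8% lower in *Plac8*+ cells, CD and HFD in turn.

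*Tyrobp* stayed under 1.5-fold in the 4 classes of both libraries as reported here. Its log2 ratios lay between -0.30 in *Lyve1*+ and 0.49 in *Ccr2*+ cells, both of HFD. Under alternatives they reached -0.63 in *Lyve1*+, 0.69 in *Ccr2*+ and 0.78 in *Lyz1* high and *Plac8*+ cells of HFD and 0.86 in *Plac8*+ cells of CD. In HFD cells of none of these classes it was at 1570 CPM against 2423 CPM in the others (-0.63).

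Classes were also compared among cells of exactly 1 class, where 651, 390, 16 and 6 CD cells and 246, 379, 62 and 11 HFD cells remained, *Lyve1*+, *Ccr2*+, *Lyz1* high and *Plac8*+ in turn. Among them *Trem2* in *Lyz1* high cells of HFD turned to 0.28, and *Cd9* turned to 0.92 in *Lyz1* high cells of CD and to 1.33 in those of HFD. *Itgax* and *Dcstamp* stayed higher in *Lyz1* high cells of both libraries under each alternative, at 0.91 or more.

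**Figure D2:**
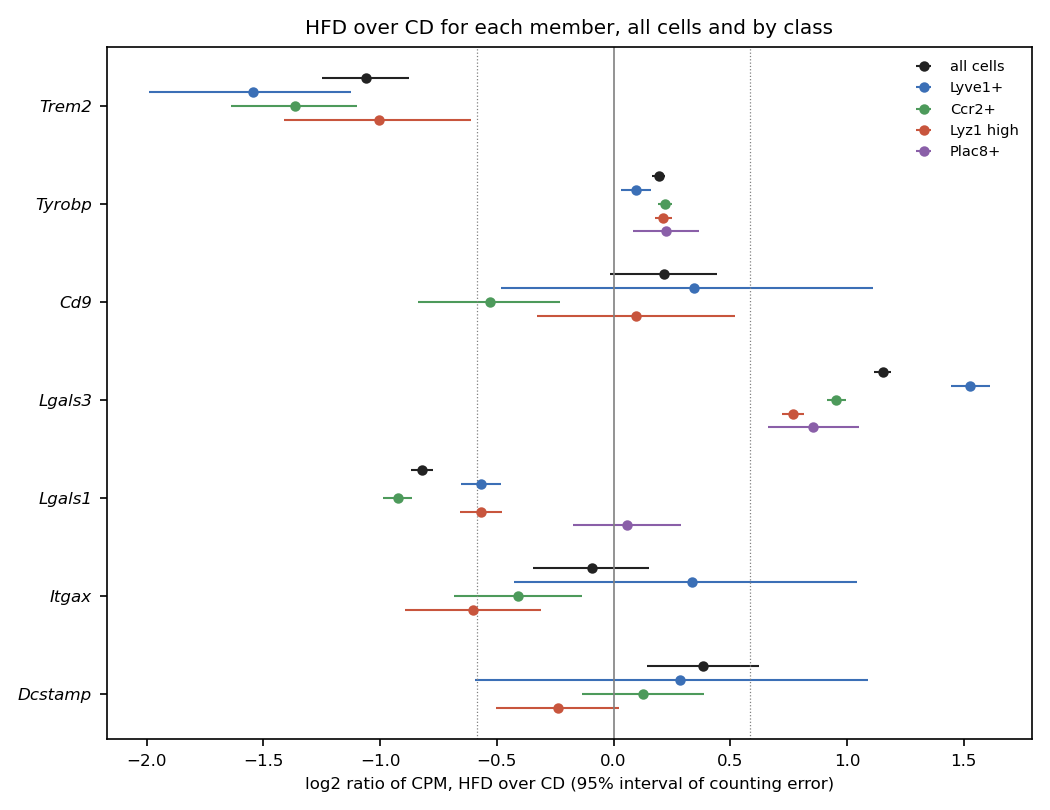
Log2 ratio of CPM, HFD over CD (x axis), for 7 members in all cells and in the 4 classes, where at least 50 UMIs were counted; bars are 95% intervals of counting error and dotted lines mark 1.5-fold. *Trem2* lies to the left of the 1.5-fold line and *Lgals3* to the right of it in each class shown, and *Tyrobp* lies between the lines.

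Diet ratios were next read within classes, because the mix of cells differed between the libraries: *Lyve1*+ cells were 49.6% of CD and 20.4% of HFD cells. *Trem2* was lower in HFD within *Lyve1*+ (112 to 38.4 CPM, log2 ratio -1.54, -1.99 to -1.13), *Ccr2*+ (63.3 to 24.6 CPM, -1.37) and *Lyz1* high cells (35.6 to 17.7 CPM, -1.01). In *Plac8*+ cells it had 10 UMIs in CD and 28 in HFD, under the minimum of 50 for a comparison. Its levels there were 42.6 and 72.3 CPM, in the other direction (0.76, -0.32 to 1.97). *Lgals3* was higher in HFD within *Lyve1*+ (522 to 1506 CPM, 1.53, 1.44 to 1.61), *Ccr2*+ (1017 to 1971 CPM, 0.95), *Lyz1* high (1299 to 2213 CPM, 0.77) and *Plac8*+ cells (1252 to 2266 CPM, 0.86, and 0.47 with thinning). In the 16 CD and 62 HFD cells that were *Lyz1* high and in no other class, its ratio was -0.01. *Lgals1* was lower in *Ccr2*+ cells (956 to 503 CPM, -0.92), fell just short of 1.5-fold in *Lyve1*+ and *Lyz1* high cells (-0.57 in each), and was at 1052 and 1094 CPM in *Plac8*+ cells (0.06, -0.17 to 0.29). Over 11 alternatives the *Lgals1* ratio ran from -0.65 to -0.44 in *Lyve1*+, -0.64 to -0.30 in *Lyz1* high and -0.96 to 1.84 in *Plac8*+ cells. *Itgax* was lower in *Lyz1* high cells of HFD (55.1 to 36.4 CPM, -0.60, -0.89 to -0.31), just past 1.5-fold. It was just under it without peritoneal marker cells (-0.57), with at least 1000 genes per cell (-0.58) and with median-of-ratios scaling (-0.58).

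Counted over classes, 1 of 7 members was higher and 1 lower within *Lyve1*+ cells, where 7.42% of all genes were higher and 8.37% lower. Within *Ccr2*+ cells it was 1 higher and 2 lower of 7 (4.15% and 8.1% of all genes), within *Lyz1* high cells 1 higher and 2 lower of 7 (4.81% and 6.16%), and within *Plac8*+ cells 1 higher and none lower of 3 (9.42% and 8.61%). With HFD levels weighted to the CD mix of *Lyve1*+, *Ccr2*+ and *Lyz1* high cells and their overlaps, a calculation added after the values were seen, the log2 ratios over all cells were -1.04 for *Trem2*, 0.94 for *Lgals3* and -0.51 for *Lgals1*, and -0.42 for *Itgax*, -0.13 for *Cd9* and -0.12 for *Dcstamp*.

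Cells of none of the 4 classes, a group also added after the values were seen, numbered 332 in CD (14.4%) and 533 in HFD (27.1%), at medians of 2497 and 1271 UMIs. They had *Trem2* at 137 CPM in CD and 115 CPM in HFD (log2 ratio -0.26, -0.64 to 0.12), and *Cd9* at 57.9 and 107 CPM (0.89, 0.40 to 1.38). Against the other cells of the same library, *Trem2* was at 0.79 in CD and 1.92 in HFD on the log2 scale, and *Cd9* at 1.02 and 2.03. *Lgals1* was at 0.51 in CD and higher in HFD (0.91). *Itgax* (-2.15 and -0.87) and *Dcstamp* (-1.79 and -1.54) were lower there, as was *Tyrobp* in HFD (-0.63). That made 2 members higher and 2 lower of 8 in CD, and 3 higher and 3 lower of 7 in HFD. Of all genes compared, 1545 of 9011 were higher and 889 lower in CD. In HFD 2010 of 8067 were higher and 881 lower. Erythroid genes summed to 5986 CPM in these HFD cells and 13.5 CPM in the other HFD cells, and peritoneal macrophage markers to 231 and 23.5 CPM (62.0 and 12.5 CPM in CD). The endothelial list stood at 540 and 127 CPM in HFD, with *Pecam1*, *Kdr* and *Flt1* at 0 by the choice of cells. Over all HFD cells *Fabp4*, which macrophages also express, gave 1373 of the 1376 UMIs of that list. The part of these cells in the levels was not tested, except for the peritoneal markers as follows.

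The 39 HFD cells with a peritoneal marker UMI, 15 of them of no class, held 24.9% of all *Cd9* UMIs of that library, at 327 CPM against 27.8 CPM in the other cells. In CD the 48 such cells held 12.1% of them, at 118 against 28.1 CPM. Without these cells *Cd9* was at 28.1 CPM in CD and 27.8 CPM in HFD, a log2 ratio of -0.02. The same cells held 2.77% of the *Trem2* UMIs in CD and 1.27% in HFD, and the *Trem2* ratio without them was -1.05.

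**Figure D3:**
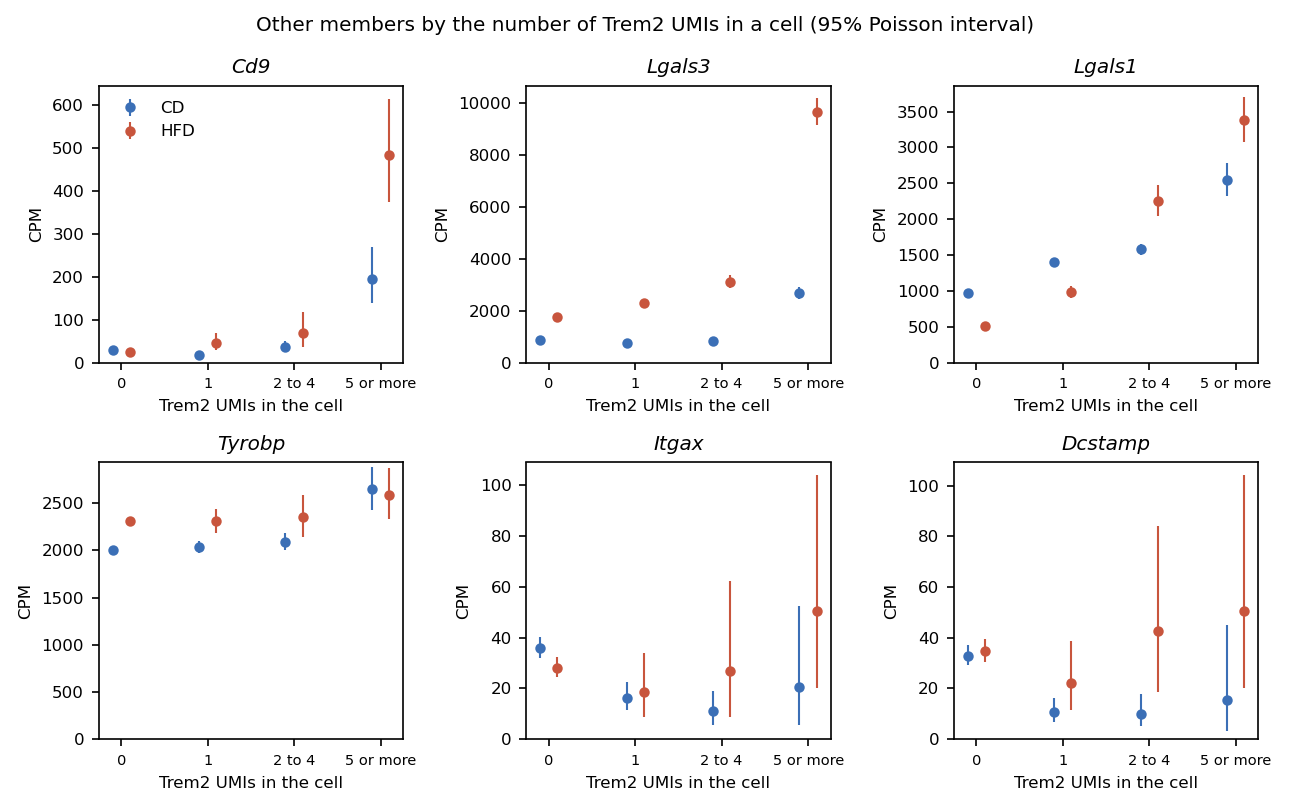
Levels of 6 members in CPM (y axis, from 0) in cells with 0, 1, 2 to 4, and 5 or more *Trem2* UMIs (x axis), for CD (blue) and HFD (red), with 95% Poisson intervals. *Cd9*, *Lgals3*, *Lgals1* and, by less, *Tyrobp* lie highest in the 23 CD and 19 HFD cells with 5 or more *Trem2* UMIs, and *Itgax* and *Dcstamp* do so in HFD only.

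The other members were then compared between cells with and without a *Trem2* UMI. Both kinds of cell had like depth in CD (medians of 4965 and 4170.5 UMIs) and differed in HFD (5117 and 2546 UMIs). In CD, *Trem2*+ cells had more *Lgals1* (1520 against 968 CPM, log2 ratio 0.65) and less *Itgax* (14.8 against 35.8 CPM, -1.27) and *Dcstamp* (10.8 against 32.9 CPM, -1.60), while *Cd9* (32.7 and 30.3 CPM, 0.11, -0.22 to 0.44) and *Lgals3* (895 and 883 CPM, 0.02) were under 1.5-fold. Within *Lyve1*+ cells of CD the *Lgals1* ratio was 0.17, the *Itgax* ratio -0.32 and the *Cd9* ratio 1.10, within *Lyz1* high cells the *Cd9* ratio was 1.33, and within cells of no class the *Lgals3* ratio was 1.21. With cells thinned to 800 UMIs, *Lgals1* was at 0.52 and *Itgax* at 0.0496. In *Trem2*+ cells of CD stromal markers summed to 6.26 CPM against 98.6 CPM in the others, and monocyte markers to 10.5 against 44.4 CPM, and their part was not tested. In HFD, *Trem2*+ cells had more *Cd9* (121 against 25.3 CPM, 2.25, 1.89 to 2.61), *Lgals1* (1638 against 515 CPM, 1.67) and *Lgals3* (3649 against 1760 CPM, 1.05), and *Itgax* (-0.15) and *Dcstamp* (-0.16) were within 1.5-fold. *Tyrobp* was at 0.06 and 0.03. Thus 1 member was higher and 2 lower of 7 in CD, where 4.37% of all genes were higher and 4.66% lower, and 3 were higher and none lower of 6 in HFD, where 8.33% were higher and 13.4% lower.

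In the cells with the most *Trem2*, *Cd9*, *Lgals3* and *Lgals1* were at their highest. The minimum of 5 UMIs was chosen after the values had been seen. In HFD the 19 cells with 5 or more *Trem2* UMIs had *Cd9* at 483 CPM (375 to 614), in 15 of the 19, *Lgals3* at 9653 CPM (9143 to 10185) and *Lgals1* at 3376 CPM. In CD the 23 such cells had *Cd9* at 195 CPM, in 7 of the 23, *Lgals3* at 2687 CPM and *Lgals1* at 2548 CPM. Both sets of cells stood above the cells without *Trem2*, where *Cd9* was at 30.3 CPM in CD and 25.3 CPM in HFD, and *Lgals3* at 883 and 1760 CPM. *Tyrobp* was also highest in these cells, by less, at 2646 CPM in CD and 2590 CPM in HFD against 2004 and 2316 CPM without *Trem2*. *Itgax* and *Dcstamp* were highest there in HFD, at 50.5 CPM each from 7 UMIs each, and not in CD. Of the 19 HFD cells 10 were in no class, and of the 23 CD cells 11 were *Lyve1*+. None of the 19 HFD cells and 2 of the 23 CD cells had a peritoneal marker UMI, and without those 2 *Cd9* in CD was at 191 CPM. Their median depths, 6483 UMIs in HFD and 7867 UMIs in CD, were above those of all cells, and the part of depth was not tested. Doublets were not called, and their part was not tested.

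The *Cd9* result in *Trem2*+ cells was read beside markers of other cells. Without cells with a peritoneal marker UMI, the log2 ratio of *Cd9* was 2.63 in HFD and -0.05 in CD, so the ratio in HFD was as large without them. Peritoneal markers summed to 114 CPM in *Trem2*+ and 40.2 CPM in other HFD cells, the endothelial list to 435 and 144 CPM, monocyte markers to 220 and 104 CPM and erythroid genes to 16.1 and 816 CPM. Over all HFD cells *Fabp4* gave 1373 of the 1376 UMIs of the endothelial list, and its log2 ratio in *Trem2*+ cells of HFD was 1.60. The endothelial value is thus nearly all *Fabp4*, which macrophages also express and which is read below among LAM partner genes. The part of *Fabp4* and of the monocyte list was not tested.

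*Gpnmb* was too sparse for a ratio in any comparison. Of its UMIs, 8 of the 13 in CD and 7 of the 11 in HFD lay in *Trem2*+ cells, 3 cells in each library. For *Spp1* it was 21 of 56 UMIs in 7 CD cells (log2 ratio 0.53, -0.32 to 1.35) and 8 of 23 UMIs in 6 HFD cells, and in CD 15 of the 21 came from a single cell.

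Co-detection of members in single cells was counted after thinning each cell to 800 UMIs, in 2281 CD and 1823 HFD cells, and set against the number that the 2 shares alone would give. Of the 36 pairs, 15 had an expected number of at least 5 cells in both libraries, and for them the median of observed over expected was 1.02 in CD and 1.06 in HFD. Each of these pairs holds *Tyrobp*, *Lgals3* or *Lgals1*, which were seen in many cells. With *Tyrobp* in 72.4% of CD and 71.4% of HFD thinned cells, its ratios cannot lie far above 1. This median therefore does not show whether the sparser members were found together. *Trem2* with *Lgals1* was at 1.22 (99 cells, 0.997 to 1.48) in CD and 2.01 (31 cells, 1.37 to 2.84) in HFD. *Lgals1* was seen less often than its share gives with *Itgax* (0.46) and *Dcstamp* (0.32) in CD, where both intervals lay below 1, and at 0.82 and 0.72 in HFD, where both held 1. *Lgals3* was above 1.5 in CD with *Cd9* (1.67, 1.01 to 2.60), *Dcstamp* (1.70, 0.99 to 2.71) and *Itgax* (1.55, 0.99 to 2.29), and at 1.36, 1.22 and 1.02 in HFD. Within *Lyz1* high cells of CD these 3 ratios were 0.90, 0.90 and 0.82, from 2, 10 and 10 cells. Within *Lyve1*+ cells of CD they were 0.99, 3.38 and 2.36, from 1, 6 and 3 cells. The part of the mix of classes in the values over all cells was not tested. *Cd9* with *Lgals1* was at 0.62 (0.31 to 1.11) in CD and 1.62 (0.94 to 2.58) in HFD. *Trem2* with *Tyrobp* was at 1.01 and 0.95.

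**Figure D4:**
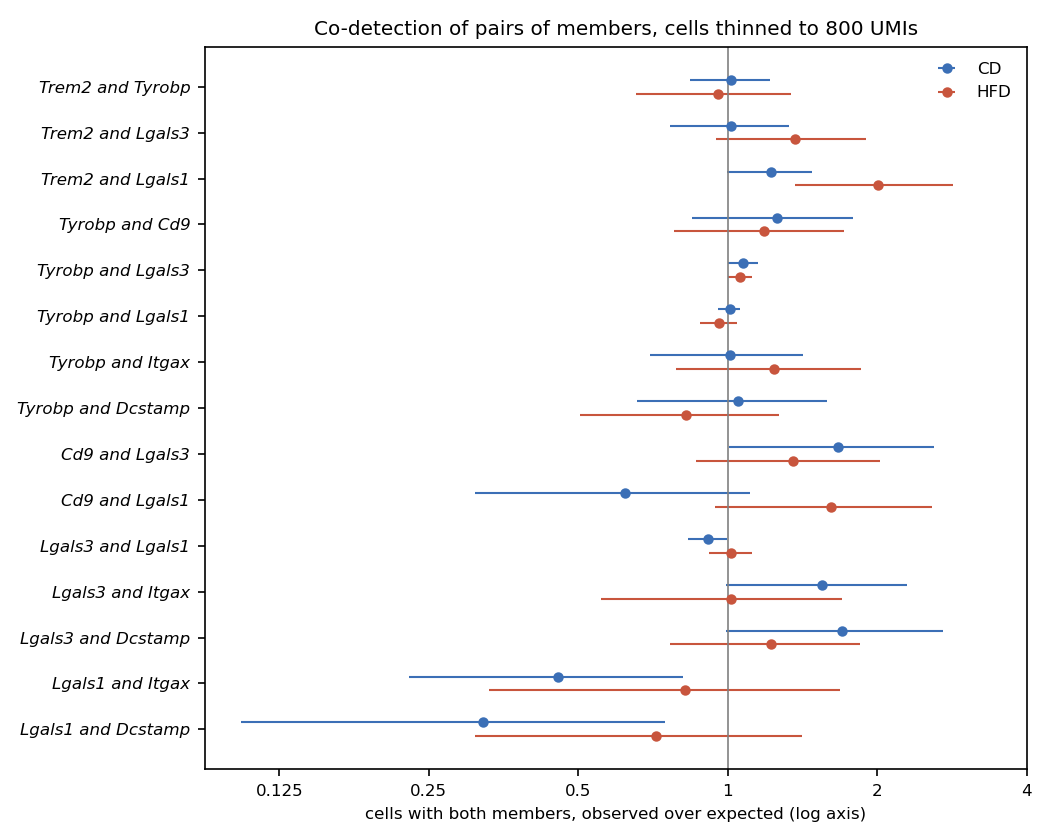
Cells with UMIs of both members over the number expected from the 2 shares (x axis, log scale) for the 15 pairs with at least 5 cells expected in both libraries, CD in blue and HFD in red, with 95% binomial intervals, in cells thinned to 800 UMIs. In CD 3 pairs lie at 1.5 or more (*Lgals3* with *Cd9*, *Itgax* or *Dcstamp*) and 3 at a like distance below 1 (*Lgals1* with *Cd9*, *Itgax* or *Dcstamp*), and in HFD 2 lie at 1.5 or more (*Lgals1* with *Trem2* or *Cd9*).

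Rarer pairs rested on few cells. *Trem2* and *Cd9* were seen together in 8 HFD cells against 0.825 expected (9.70, 4.19 to 19.1) and in 3 CD cells against 2.18 (1.37, 0.28 to 4.01). *Itgax* and *Dcstamp* were seen together in 6 CD cells against 0.572 expected (10.5, 3.85 to 22.8) and in no HFD cell against 0.485 expected. *Cd9* and *Itgax* met in 5 CD cells against 0.651 expected (7.68, 2.50 to 17.9) and in 2 HFD cells against 0.456. Without thinning, cells with both *Trem2* and *Cd9* were 46 of 2309 in CD (1.99%, 1.46 to 2.65) and 29 of 1964 in HFD (1.48%, 0.99 to 2.11), at medians of 7493 and 6483 UMIs. In these unthinned cells *Cd9* was seen in 7.38% of *Trem2*+ and 6.67% of all CD cells. In HFD it was seen in 18.0% and 5.80%, a smaller excess than in the thinned cells. Of the 29 HFD cells 12 belonged to no class.

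Counting the 6 sparser members (*Trem2*, *Cd9*, *Gpnmb*, *Spp1*, *Itgax*, *Dcstamp*) in thinned cells, 89.3% of CD and 92.9% of HFD cells had none of them, and 0.921% and 0.768% had 2 or more. Cells of no class had 2 or more in 1.27% in CD and 1.65% in HFD.

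For 5 members, genes were ranked by their ratio in cells with the member over cells without it, taking the lower log2 ratio of the 2 libraries over 6305 genes. For *Trem2* the 5 leading genes were *Saa3* (2.49 in CD, 2.13 in HFD), *Gngt2* (1.47 and 1.42), *Itgb5* (1.35 and 1.43), *Gdf15* (1.28 and 2.52) and *Atp6v0d2* (1.24 and 1.96). *Saa3* is an acute-phase apolipoprotein, *Gdf15* a stress-induced cytokine and *Atp6v0d2* a subunit of the lysosomal proton pump of macrophages and osteoclasts. For *Cd9* they were *Saa3* (5.03 in CD, 5.50 in HFD), *Prg4* (4.73 and 6.19), *Slpi* (4.41 and 7.59), *Ccl17* (5.05 and 2.94) and *Icam2* (2.73 and 2.96). Of these *Prg4* is on the peritoneal list. For *Gpnmb*, from only 6 CD and 7 HFD cells, they were *Atp6v0d2*, *Cd9*, *Cd63*, *Slc37a2* and *Fabp5*, with *Cd9* at 539 CPM in CD and 347 CPM in HFD in those cells. *Itgax* and *Dcstamp* each had *Mmp12*, macrophage elastase, first (log2 ratios of 3.88 and 3.29 for *Itgax*, 3.31 and 3.11 for *Dcstamp*) and each other second, followed by *Ccnd2*, *Cd24a* and *Ccl17* for *Itgax* and *Olr1*, *Mthfd1* and *F10* for *Dcstamp*. Cells with a member differ in depth from cells without it, so these are descriptions.

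The surrounding pathway was read from lists of genes by role, HFD over CD in all cells, where 4.94% of all genes were higher, 8.75% lower and the median log2 ratio was -0.01. Of the 17 genes that pass on or restrain the TREM2 and TYROBP signal (such as *Syk*, *Plcg2*, *Inpp5d*, *Vav1* and *Btk*), all were compared and none differed by 1.5-fold in either direction, with a median log2 ratio of 0.14. *Syk*, the kinase that binds TYROBP, was at 121 CPM in CD and 152 CPM in HFD (0.33, 0.22 to 0.45). Of 5 ligand and lipoprotein genes compared, 1 was higher, *Apoc1* with 30 and 38 UMIs (0.96, 0.23 to 1.70). *Apoe*, a lipoprotein that TREM2 binds, was at 8549 and 6811 CPM (-0.33). None of the 4 shedding and Ms4a genes compared passed 1.5-fold. *Adam10* (-0.11) and *Adam17* (0.09), proteases that cut TREM2 from the cell, were near 0 on the log2 scale. *Ms4a7* was lower in HFD and fell just short of 1.5-fold (132 to 87.8 CPM, -0.584, -0.72 to -0.45).

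Receptors that share TYROBP with TREM2 differed in both directions. Of 10 compared, 4 were higher in HFD, *Sirpb1c* (9.44 to 25.5 CPM, 1.43), *Klrd1* (1.09), *Sirpb1b* (0.89) and *Klrk1* (0.74), and *Clec5a* was lower (11.9 to 3.97 CPM, -1.58, -2.19 to -1.01). *Sirpb1b* and *Sirpb1c* are close copies, so reads may be split between them. *Klrd1* and *Klrk1* are receptors of NK and T cells, whose list (*Cd3e*, *Trbc2*, *Nkg7*, *Ncr1*) had 18 UMIs in CD and 1 in HFD.

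Of 21 LAM partner genes compared, 6 were higher in HFD and 1 lower, with a median log2 ratio of 0.22 against -0.01 over all genes (4.94% higher, 8.75% lower). The lipid droplet genes *Plin2* (349 to 1026 CPM, 1.56, 1.501 to 1.61) and *Hilpda* (27.8 to 65.3 CPM, 1.23) led, followed by *Mmp12* (0.95), the lysosomal protease *Ctsd* (0.91), *Basp1* (0.83) and *Fabp4* (0.64). *Cd63* (-0.04) and *Fabp5* (0.00) of the same list were near 0 on the log2 scale. Within the smaller lists, *Tspan4* (-1.41) was the 1 of 8 tetraspanins and CD9 partners past 1.5-fold, *Tfe3* (-0.59) the 1 of 4 GPNMB regulators, *Cd44* (0.61) and *Itga9* (-0.98) the 2 of 6 osteopontin receptors, and *Acp5* (0.98) the 1 of 4 fusion and osteoclast genes. None of 3 other galectins and none of 3 other beta 2 integrins passed it. Over all lists 13 of the genes were higher and 5 lower.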

How the data were processed

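ATMs of epididymal fat were profiled by droplet-based 3′ scRNA-seq, 1 library per diet from 3 pooled mice. The authors deposited unnormalized UMI counts for each barcode, for which the submitters' processing notes name Cell Ranger 3.0.2 and the build mm10. The CD library held 15003119 UMIs and the HFD library 9164686. The members and lists were chosen with earlier results of these data known. Genes named besides the members were the list genes past 1.5-fold (at most 5 per list by size, with *Fabp4*, *Syk*, *Apoe*, *Adam10*, *Adam17*, *Ms4a7*, *Cd63* and *Fabp5* named in addition after their values were seen) and the 5 genes most like 5 members, among genes with at least 100 UMIs per library.

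Analyses used Python 3.11.15, numpy 2.4.6, scipy 1.17.1 and pandas 2.3.3, and figures matplotlib 3.10.9. Barcodes were filtered on genes, mitochondrial and endothelial UMIs as given above; over 10% mitochondrial UMIs removed most of the others. No doublet caller was run: the limit of 3500 genes and an alternative without the 5% of cells with the most UMIs stood in its place. For levels in CPM, 95% intervals were exact Poisson ones, for shares Clopper-Pearson ones, and for ratios they came from the conditional binomial distribution. A gene at 0 in a group was called only on the bound that 3 UMIs give. For shares and co-detection, cells were thinned to 800 UMIs, which left out 28 CD and 141 HFD cells. No p-value was computed, since cells are not replicates. The ratio intervals were tested on simulated counts. Age and diet composition came from the study's methods. Alternatives changed the filters, scaling, weighting of cells, depth, fold, minimum of UMIs and classes. Those that use the mix of cells, cells of no class, shared barcodes, *Plac8*+ cells or peritoneal markers, and the groups by *Trem2* UMIs, were chosen after seeing the data. Promoter windows were read from RefSeq, and none was used for *Tyrobp*, *Lgals1* and *Dcstamp*. The values of 1 list gene are not reported here.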

Additional observations from a re-analysis of the deposited data

Results flagged for a closer look

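*Trem2* in *Plac8*+ cells over other cells had a log2 ratio of -0.9995 in CD (10 UMIs, interval -2.06 to -0.11) and 0.90 in HFD (28 UMIs, 0.28 to 1.46), opposite directions whose difference was not tested. The HFD value turned to -1.18 in cells thinned to 800 UMIs.

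*Lgals3* was also seen in the barcodes left out for more than 10% mitochondrial UMIs, at 634 CPM in 1120 HFD barcodes and 253 CPM in 2043 CD barcodes, at medians of 739 and 896 UMIs. The HFD library was the higher one there as in the kept cells.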

How the results depend on the processing

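No paired analysis was possible because each diet had 1 library. Of 1100 single ratios under alternatives, 595 were of ratios reported at 1.5-fold or more, of which 40 fell under 1.5-fold or changed direction, 10 of them the latter. The other 505 were of ratios reported under 1.5-fold, of which 49 changed direction and 72 passed 1.5-fold. In all cells, over 13 alternatives, the log2 ratio of HFD over CD ran from -1.39 to -1.01 for *Trem2*, 0.94 to 1.25 for *Lgals3* and -0.91 to -0.51 for *Lgals1*. The causes of the changes below were not tested, except that a 2-fold limit calls fewer genes by construction.

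Of the ratios reported at 1.5-fold or more, those that changed direction were, in *Plac8*+ over other cells of HFD, *Cd9* (0.14 with each cell counted equally and 0.89 in cells of 1 class), *Lgals1* (-0.12 without the 5% of cells with the most UMIs) and *Trem2* (-1.18 thinned), as well as *Itgax* in *Trem2*+ cells of CD (0.0496 thinned). In cells of 1 class *Lgals3* within *Lyz1* high cells was at -0.0085, *Cd9* at 0.19 in *Ccr2*+ cells of HFD and at 0.92 (CD) and 1.33 (HFD) in *Lyz1* high cells, and *Trem2* at 0.28 in *Lyz1* high cells of HFD.

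Counts of members past 1.5-fold moved as follows. Shares of all genes under these alternatives are not given, so the counts do not tell a change in the members from a change in all genes. In all cells (1 higher, 3 lower), 2 were higher with thinning, with *Dcstamp* added, and 1 lower at 2-fold. Over the 4 classes in both libraries (13 higher, 24 lower), 22 were higher with cells counted equally and 22 higher and 15 lower in cells of 1 class, 7 higher at 2-fold, and 11 lower with thinning. Within classes (4 higher, 5 lower), it was 1 and 3 at 2-fold, and 7 and 9 with no minimum of UMIs. In *Trem2*+ cells (4 higher, 2 lower), it was 2 and 0 with thinning, 7 higher with no minimum, 1 lower within *Lyve1*+ cells and 0 lower within cells of no class. Of the list genes (13 higher, 5 lower), it was 4 and 2 at 2-fold, 21 higher with no minimum and 8 lower in cells of at least 1000 genes. Pairs of members at 1.5 times the expected number (3 in CD, 2 in HFD) were 0 and 0 with all UMIs, 1 and 1 at 1500 UMIs, 1 in CD within *Lyz1* high cells, and in HFD 5 within *Lyve1*+ cells, 7 within cells of no class, and 1 with another random seed, with at least 1000 genes or without peritoneal marker cells. The minimum of 5 cells expected was not applied anew within classes. The 5 pairs within *Lyve1*+ cells of HFD rested on 1 or 2 cells each. Of the 7 pairs within cells of no class, some also rested on few cells, such as *Lgals1* with *Dcstamp* (3 against 1.63 expected). Others rested on more, such as *Trem2* with *Lgals3* (12 against 7.62 expected). The members whose shares did not overlap between the libraries (3) were 4 at 1500 UMIs and with a mitochondrial limit of 20%, and 3 in the other alternatives run.

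Depth limits the sparse members: 3 UMIs are 0.251 CPM in CD and 0.384 CPM in HFD, against 1.09 and 1.41 CPM of *Gpnmb*.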
